A study of Mus musculus with 6 samples.

Results

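Glutathione peroxidases are enzymes that use glutathione or related thiols to reduce hydrogen peroxide and lipid hydroperoxides. The mouse has 8 of these genes, Gpx1 to Gpx8, and all 8 were found among the 39429 probes of the array (31687 gene names) by the name in the scanner files, each with a single probe and a single spot. In the mouse, 4 of the proteins (GPX1, GPX2, GPX3 and GPX4) carry selenocysteine, the selenium analogue of cysteine, at the active site. The other 4 (GPX5, GPX6, GPX7 and GPX8) carry cysteine there. Selenocysteine is inserted at a UGA codon that is read through with the help of a hairpin in the messenger RNA, so these forms depend on selenium supply. GPX4 is the form that repairs oxidised membrane lipids and protects cells from ferroptosis, GPX1 is the abundant cytosolic and mitochondrial form, GPX2 belongs to gut epithelium, and GPX3 is secreted into plasma and is made mainly by the kidney. GPX5 is secreted in the epididymis, GPX6 belongs to the olfactory epithelium and carries selenocysteine in humans, and GPX7 and GPX8 sit in the endoplasmic reticulum.

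The arrays held RNA of whole ovaries from female C57BL/6J mice aged 20 weeks, 3 SeBP1 knockout and 3 wild type. SeBP1 is selenium-binding protein 1, encoded by Selenbp1 and known in humans as a methanethiol oxidase, and the question was how loss of this gene bears on expression in the ovary. The part of the gene that was removed, and whether it was removed in every cell, are not given in the sources used here. A single-colour Agilent array was used for each sample, and levels are log2 of the processed signal minus the 75th percentile of that array, so that 0 is the 75th percentile. The design text gives 3 mice per genotype, and the labels do not say whether an array holds 1 animal or a pool, so the p-values cover the spread among these 6 arrays and no more.

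Selenbp1 had log2 levels of -0.11, 0.02 and -0.37 in knockout ovaries, against 2.68, 2.53 and 2.59 in wild-type ovaries, so the labels fit the targeted gene. All 3 knockout arrays and wild type replicate 3 lay on a slide of their own, apart from wild type replicates 1 and 2. Between 61.6% and 69.3% of the spots per array were well above background, the scanner software's call of signal over its surroundings. Wild type replicate 3 had the lowest share, and its repeat spots varied most (median coefficient of variation 6.46%, where the other 5 arrays had 2.35% to 3.34%). A probe was tested where every array of 1 genotype or the other had it well above background. All 8 oocyte markers and all 8 granulosa cell markers met this criterion, and so did Lrp2, 1 of the 4 kidney tubule markers, while the other 3 (Slc34a1, Umod and Kap) and the epididymal markers (Crisp1, Adam7 and Defb41) did not.

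The probes decide what each value reads. Those of Gpx4 and Gpx1, which carried the strongest signals, are shown whole, 5′ to 3′, and of the Gpx3 probe, whose signal varied most between ovaries, the first 30 of its 60 bases are shown.
Gpx4: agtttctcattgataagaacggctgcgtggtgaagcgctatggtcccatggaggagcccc
Gpx1: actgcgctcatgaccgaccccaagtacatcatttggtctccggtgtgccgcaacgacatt
Gpx3: ttttttcagctttctgttccaaatgagccc
The Gpx4 probe is assigned to chromosome 10, positions 79518691 to 79518842 of build mm9, so its 60 bases span 152 bases of the genome and cross an intron. The Gpx1 probe lies on chromosome 9 at 108242276 to 108242335, and the Gpx3 probe on chromosome 11 at 54723436 to 54723495. The files place the Gpx2 probe on chromosome 12 at 77893402 to 77893461 and the Gpx7 probe on chromosome 4 at 108072995 to 108073054. The remaining 3 lie on chromosome 13, Gpx5 at 21378308 to 21378367, Gpx6 at 21411049 to 21411108 and Gpx8 at 113833213 to 113833272. No 2 probes of the array share any of these sequences. Where in an exon the probes lie was not worked out here.

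By signal the family fell into 5 members that were bright in ovary, 2 that were faint and 1 that was not measurable. Gpx4 was the brightest on average, followed by Gpx1, Gpx3, Gpx8, Gpx7, Gpx2, Gpx6 and Gpx5. The first 3 places belonged to selenocysteine forms, and the next 2 to the cysteine forms of the endoplasmic reticulum. The selenocysteine form Gpx2 and the cysteine forms Gpx6 and Gpx5 came last. This is an order of probe brightness. Probes differ in how strongly they bind and label, so it is not an order of messenger RNA amounts.

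**Figure D1:**
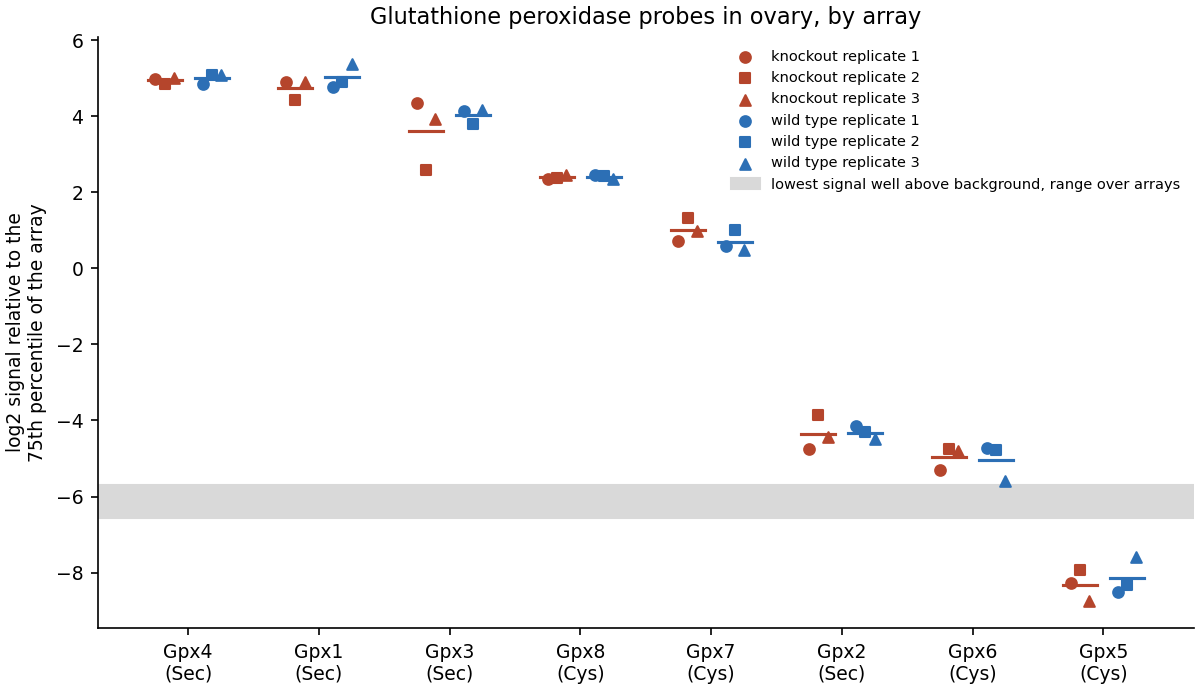
Log2 signal, with 0 at the 75th percentile of each array (vertical axis), for the 8 glutathione peroxidase probes in order of mean signal, with knockout arrays in red and wild-type arrays in blue, a symbol for each replicate and a line at the group mean (Sec, selenocysteine; Cys, cysteine). Gpx4 to Gpx7 lie above 0 on every array. Gpx2 and Gpx6 lie above the grey band of the lowest signal well above background, Gpx6 closer to it, and Gpx5 lies below the band. The band spans -6.56 to -5.69 over the arrays.

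Gpx4, the lipid hydroperoxide peroxidase, had log2 levels of 4.98, 4.84 and 5.01 in knockout ovaries, against 4.84, 5.09 and 5.08 in wild-type ovaries. The ranges overlapped, and the 6 values lay within 0.25 of each other. On each array the probe was brighter than at least 97.3% of all probes. The group means were 4.94 ± 0.09 in knockout and 5.01 ± 0.14 in wild type (SD, n = 3 each). Knockout minus wild type gave a log2 difference of -0.06 (standard error 0.12, 95% confidence interval -0.35 to 0.22; limma, adjusted p = 1.00).

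Gpx1, the cytosolic peroxidase, had log2 levels of 4.90, 4.43 and 4.89 in knockout ovaries, against 4.77, 4.90 and 5.38 in wild-type ovaries. Knockout replicate 2 was the lowest and wild type replicate 3 the highest, and the other 4 arrays lay between 4.77 and 4.90 whatever the genotype. The group means were 4.74 ± 0.27 in knockout and 5.02 ± 0.32 in wild type (SD, n = 3 each). For Gpx1 the difference came to -0.28 on the log2 scale (standard error 0.21, 95% confidence interval -0.79 to 0.23; limma, adjusted p = 1.00). Gpx4 was brighter than Gpx1 on 5 of the 6 arrays and dimmer on wild type replicate 3, with a mean gap of 0.10 ± 0.23 (SD, n = 6), so the top 2 did not differ beyond their spread. In wild type alone the means ran the other way, 5.02 for Gpx1 and 5.01 for Gpx4. Without wild type replicate 3 the genotype difference of Gpx1 was -0.10.

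Gpx3, the secreted form, was the most variable of the 7 probes above background. Its log2 levels were 4.35, 2.59 and 3.92 in knockout ovaries, against 4.13, 3.79 and 4.15 in wild-type ovaries. Knockout replicate 2 stood well below the other 5 arrays, at 8993 intensity units where those ran from 21882 to 33485. Knockout replicate 1 was the highest of all 6, so the genotypes overlapped across the whole wild-type range. The group means were 3.62 ± 0.92 in knockout and 4.02 ± 0.20 in wild type (SD, n = 3 each). The estimated log2 difference was -0.40 (standard error 0.44, 95% confidence interval -1.46 to 0.66; limma, adjusted p = 1.00). Without knockout replicate 2 the difference was 0.11, of the opposite sign. The SD of Gpx3 over the 6 arrays, 0.63, lay at the 94.9th percentile of the 24415 probes tested, whose median SD was 0.20.

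Gpx8, a membrane protein of the endoplasmic reticulum, was the steadiest member. Its log2 levels were 2.36, 2.37 and 2.45 in knockout ovaries, against 2.46, 2.43 and 2.34 in wild-type ovaries. All 6 arrays lay within 0.12, and its SD of 0.05 was at the 1.43rd percentile of the probes tested. Knockout minus wild type came to -0.02 on the log2 scale (standard error 0.10, 95% confidence interval -0.25 to 0.22; limma, adjusted p = 1.00), and its sign turned with the deposited series table and on slide 2 alone.

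Gpx7, its soluble relative in the same compartment, had log2 levels of 0.72, 1.32 and 0.98 in knockout ovaries, against 0.59, 1.00 and 0.49 in wild-type ovaries. Knockout replicate 2 was the highest, and wild type replicate 2 exceeded the other 2 knockouts, so the groups overlapped. The group means were 1.01 ± 0.30 in knockout and 0.70 ± 0.27 in wild type (SD, n = 3 each). Gpx7 had a log2 difference of 0.31 (standard error 0.21, 95% confidence interval -0.19 to 0.81; limma, adjusted p = 1.00), with an unadjusted p of 0.178. Without knockout replicate 2 the difference was 0.15, and with array weights 0.12.

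Gpx2, the gut form, was faint, with log2 levels of -4.76, -3.86 and -4.42 in knockout ovaries, against -4.16, -4.30 and -4.50 in wild-type ovaries. The probe exceeded background on every array, at 57.9 to 103 intensity units, and the knockout values lay on both sides of the wild-type range. Its log2 difference came to -0.03 (standard error 0.24, 95% confidence interval -0.61 to 0.55; limma, adjusted p = 1.00). Of the gut epithelium markers, Cdx2 and Fabp2 did not reach the background criterion, while Vil1 and Lgals4 did.

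Gpx6, the olfactory form, had log2 levels of -5.30, -4.76 and -4.81 in knockout ovaries, against -4.72, -4.78 and -5.59 in wild-type ovaries. It was well above background on all 3 knockout arrays and on 2 of the 3 wild-type arrays, and not on wild type replicate 3. Its log2 difference was 0.07 (standard error 0.28, 95% confidence interval -0.59 to 0.74; limma, adjusted p = 1.00), and it was -0.06 with normexp background correction. The olfactory markers Omp and Cnga2 passed the same criterion, Cnga2 through the knockout group alone, with 2 of the 3 wild-type arrays well above background. Gpx2 was brighter than Gpx6 on all 6 arrays, although their ranges over the arrays overlapped.

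Gpx5, the epididymal form, was not well above background on any of the 6 arrays. Its spots read 5.3, 6.1 and 3.8 intensity units in knockout ovaries, against 4.8, 4.9 and 6.8 in wild-type ovaries. With both genotypes below background no fold is given, and the probe was not tested.

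Set against the whole array, no glutathione peroxidase was called. Of the 7 probes tested, 0 passed an adjusted p under 0.05 (limma) and 0 had an unadjusted p under 0.05. Other settings put unadjusted p values of single members below that level, 0.037 for Gpx1 and 0.047 for Gpx6 with slide as a fixed block and 0.047 for Gpx1 with quantile normalization (limma, lowest adjusted p of any alternative 0.482 for Gpx1 and 0.505 for Gpx6). Over all 24415 probes the first rule called 1, Selenbp1, or 0.00410%, and the second held for 3.95%. The genotypes overlapped for all 7 probes, where they did not overlap for 8.66% of the 24180 probes measured on all 6 arrays. The median log2 difference of the 7 probes was -0.03, beside -0.02 over all probes tested. The 4 selenocysteine forms lay below 0, from -0.40 to -0.03, with a median of -0.17. The 3 cysteine forms tested ran from -0.02 to 0.31, with a median of 0.07. The difference between the 2 forms was not tested, and the signs of Gpx2, Gpx3, Gpx6 and Gpx8 each turned under at least 1 other setting or with an array left out. The confidence intervals reach 0.786-fold to 1.17-fold of wild type for Gpx4 and 0.840-fold to 1.16-fold for Gpx8. They are wider for Gpx1, at 0.578-fold to 1.18-fold, and for Gpx3, at 0.363-fold to 1.58-fold.

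**Figure D2:**
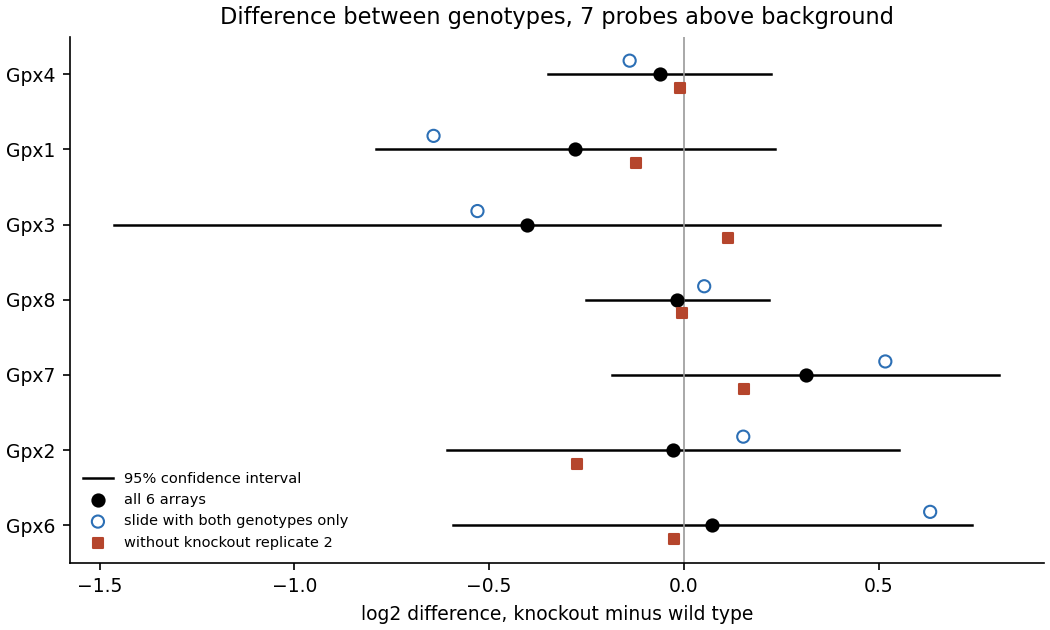
Log2 difference, knockout minus wild type (horizontal axis), for the 7 glutathione peroxidase probes above background, with the estimate from all 6 arrays (black point), its 95% confidence interval (line), the difference on the slide that held both genotypes (open blue circle) and the difference without knockout replicate 2 (red square). All 7 intervals include 0, and the Gpx3 estimate of -0.40 moves to 0.11 without knockout replicate 2.

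Slide 1 held wild type replicates 1 and 2 and no knockout, so within a slide the genotypes can be compared on slide 2 alone, where wild type replicate 3 is the single counterpart of 3 knockouts. There the log2 difference was -0.64 for Gpx1, -0.53 for Gpx3, -0.14 for Gpx4 and 0.52 for Gpx7. It was 0.63 for Gpx6, 0.15 for Gpx2 and 0.05 for Gpx8. The Gpx6 value rests on wild type replicate 3, where that probe was not well above background, at 27.2 intensity units. The directions of Gpx1, Gpx3, Gpx4 and Gpx7 were those of the full comparison, and that of Gpx6 too, while Gpx2 and Gpx8 changed sign. With a single wild-type array these values hold no spread between wild types.

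Knockout replicate 2 and wild type replicate 3 lay farthest from the mean for several members. Relative to the mean of its 6 arrays, knockout replicate 2 was at -1.23 for Gpx3 and -0.45 for Gpx1 and at 0.47 for Gpx7 and 0.48 for Gpx2. Wild type replicate 3 was at 0.50 for Gpx1, 0.33 for Gpx3, -0.36 for Gpx7 and -0.60 for Gpx6, which was not well above background there. In both ovaries Gpx1 and Gpx3 therefore lay on the opposite side of the mean from Gpx7. Knockout replicate 1 had the same arrangement, and the remaining arrays did not. On knockout replicate 3 Gpx1, Gpx3 and Gpx7 lay above the mean, at 0.01, 0.10 and 0.13. On wild type replicates 1 and 2 Gpx1 and Gpx3 lay on different sides of it.

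Markers of corpus luteum and of red cells also deviated on these arrays. All 6 corpus luteum markers passed the background criterion, and the median deviation of the list was 1.22, -2.64 and 0.32 in knockout replicates 1 to 3, against 0.36, -0.11 and 0.84 in wild type replicates 1 to 3. The summed level of the 5 luteal markers measured on every array, as multiples of the 75th percentile, was 90.8, 4.50 and 62.4 in the knockouts, against 44.8, 36.1 and 55.8 in wild type. Knockout replicate 2 was thus lowest and knockout replicate 1 highest both for the median and sum of this list and for Gpx3. Single markers differed. Ptgfr and Sfrp4 were highest on knockout replicate 1, Lhcgr and Prlr on wild type replicate 3 and Akr1c18 on knockout replicate 3. Akr1c18 was lowest on wild type replicate 3, at -2.23, against -1.65 on knockout replicate 2. Sfrp4, at 5.95 on knockout replicate 1, was the largest part of the sum there. The red cell markers that passed were 3 of 7, Hba-a1, Alas2 and Slc4a1, and their summed level was 9.59, 36.8 and 8.26 in the knockouts, against 8.62, 4.80 and 4.55 in wild type. Hba-a1, at 5.17 on knockout replicate 2, made up most of this sum. Alas2 was also highest on that array, at -0.49, while Slc4a1 stayed between -5.06 and -4.70 on all arrays. Hbb-b1 was not matched to a probe by name. The part of either cell type in the values of Gpx3 or Gpx1 was not tested. In whole ovaries, fewer cells of a type and less RNA per cell cannot be told apart.

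**Figure D3:**
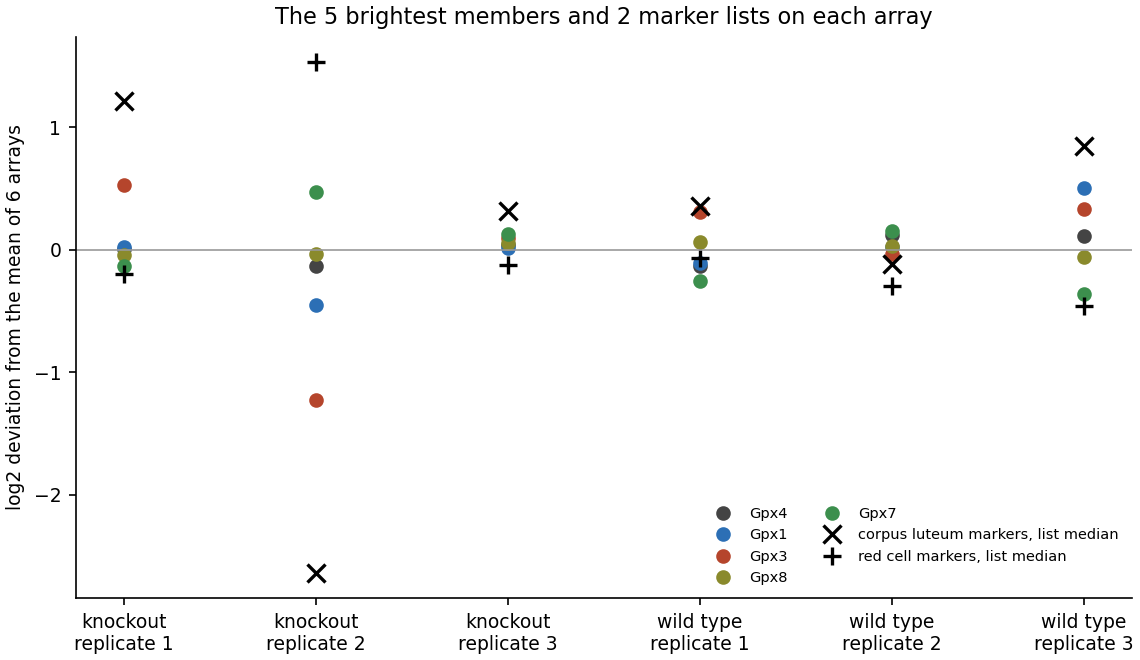
Log2 deviation from the mean of the 6 arrays (vertical axis) on each array (horizontal axis) for the 5 brightest glutathione peroxidases (coloured points), with the list medians of corpus luteum markers (crosses) and red cell markers (plus signs). On knockout replicate 2 Gpx3 is at -1.23, the luteal median at -2.64 and the red cell median at 1.53.

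Genes with the most similar profile were sought for the 2 members with the largest SD among the probes tested, Gpx3 and Gpx6, by Pearson's r over the 6 arrays among 19037 named probes. For Gpx3 these were Kif1c (r = 0.989), Tmem202 (r = 0.988) and Actr2 (r = 0.986). Their own SDs over the arrays were smaller, at 0.21, 0.28 and 0.15, against 0.63 for Gpx3. For Gpx6 they were Taf7 (r = 0.997), Topors (r = 0.993) and Casc3 (r = 0.992), with SDs of 0.15, 0.08 and 0.10 against 0.36. All values of an array share its labelling and scaling, and with this many probes and 6 arrays such r values say little about any pair.

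The upstream sequence was a feature the choice of members did not use. RefSeq tables of build GRCm38.p6 gave 11 transcription starts for the 8 genes, and CpG dinucleotides were counted in the 250 bases before each start. The bright members had 7 (Gpx1), 11 (Gpx3), 10 (Gpx8) and 16 (Gpx7) CpG, and Gpx4 had 24, 24, 21 and 2 at its 4 starts. The Gpx4 windows with 24 CpG overlap, at 80053315 to 80053564 and 80053409 to 80053658, so some CpG are counted in both. The faint or unmeasured members had 0 (Gpx2) and 3 each (Gpx5 and Gpx6), fewer than the bright members had at any start except the Gpx4 start with 2. The median over all 32851 starts in the tables was 6. Gpx4, the brightest, and Gpx5, the dimmest, are shown for this contrast, 5′ to 3′ on the gene's strand, with CG in capitals.
Gpx4, chr10:80053315-80053564, plus strand: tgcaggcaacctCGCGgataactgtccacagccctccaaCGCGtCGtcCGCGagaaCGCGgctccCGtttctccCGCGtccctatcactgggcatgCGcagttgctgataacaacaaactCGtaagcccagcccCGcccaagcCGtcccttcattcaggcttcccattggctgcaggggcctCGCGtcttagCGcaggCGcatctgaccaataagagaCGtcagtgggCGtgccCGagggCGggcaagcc
Gpx5, chr13:21292687-21292936, minus strand: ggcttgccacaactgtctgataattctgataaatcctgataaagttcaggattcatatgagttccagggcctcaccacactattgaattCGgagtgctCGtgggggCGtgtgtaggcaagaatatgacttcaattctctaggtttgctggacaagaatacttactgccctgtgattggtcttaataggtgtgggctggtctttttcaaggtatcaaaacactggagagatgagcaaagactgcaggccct
These counts describe the windows and were not tested against the signal. The motif TGACNNNGC, the core of the antioxidant response element bound by NRF2, was searched on both strands and was in 0 of the 11 windows, where 10.2% of all starts held it. This says only that these letters are not in these windows.

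Genes around the family were read from 7 pathway lists of 87 distinct genes, of which 83 were tested. Of these, 0 were called in either direction (limma), 29 lay above 0 and 54 below, and 4 had an unadjusted p under 0.05. Over all probes tested 45.7% lay above 0, a share that ran from 37.9% to 54.5% over the settings, and 3.95% had such a p. Their median log2 difference was -0.03, beside -0.02 over all probes, and the genotypes did not overlap for 8 of the 83, against 8.66% of all probes.

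Glutathione supply was represented by 12 genes tested of 14 listed, with a median of -0.02. Ggt7, a gamma-glutamyltransferase family member, had a log2 difference of 0.42 (standard error 0.13), and Chac2, which breaks down glutathione, of -0.36 (standard error 0.14; limma, adjusted p = 1.00 for both). Of the 8 genes that supply NADPH, which keeps glutathione reduced, 4 lay above and 4 below 0, with a median of -0.07. Nnt, the mitochondrial transhydrogenase, had log2 levels of 2.58, 2.45 and 2.28 in knockout ovaries, against 1.21, 1.15 and 0.99 in wild-type ovaries. Its groups did not overlap, and its difference of 1.32 had an adjusted p of 0.336 (limma). The cause of this difference was not tested. G6pdx, the entry enzyme of the pentose phosphate pathway, was at -0.15.

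Other enzymes against peroxide and superoxide numbered 16, of which 13 lay below 0, with a median of -0.12 and no member beyond 0.24 in size. Without wild type replicate 3 the median was -0.02, and on slide 2 alone -0.34. The median deviation of this list was 0.28 on wild type replicate 3 and from -0.09 to 0.03 elsewhere. Txnrd2, the mitochondrial thioredoxin reductase, was at -0.22 and Prdx3, a mitochondrial peroxiredoxin, at -0.24. Txn1, at -0.23, rests on 1 wild-type array, which was wild type replicate 3.

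The 13 genes of selenium supply and selenocysteine insertion had a median of -0.01. Selenop, which encodes the plasma selenium carrier, was among them at -0.07, with log2 levels of 4.48, 4.37 and 4.17 in knockout ovaries, against 4.58, 4.48 and 4.16 in wild-type ovaries. It was chosen after its values were seen, as the gene that delivers selenium to tissues. Lrp2, which encodes the endocytic receptor megalin, was at -1.57 (standard error 0.67; limma, adjusted p = 1.00), but at -0.12 on slide 2 alone, -0.89 with normexp and -0.98 without wild type replicate 2. Its levels were -5.90, -5.42 and -4.69 in knockout ovaries, against -3.49, -2.60 and -5.22 in wild-type ovaries, and they overlapped. The summed level of the 3 oviduct and secretory epithelium markers tested (Ovgp1, Agr2 and Krt7, of 5 listed) was 1.40, 2.40 and 3.39 in the knockouts, against 3.41, 31.1 and 2.48 in wild type, and its part in the Lrp2 value was not tested. Ovgp1, at 4.83 on wild type replicate 2, made up most of the sum of that array. Foxj1 and Pax8 did not pass. Eefsec, the elongation factor for selenocysteine, was at 0.15.

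Of 14 other selenoproteins, 6 lay above and 8 below 0, with a median of -0.02. Selenot, of the endoplasmic reticulum, was at -0.25 (standard error 0.11), and Dio3, the deiodinase that inactivates thyroid hormone, at 0.48 (standard error 0.27; limma, adjusted p = 1.00 for both).

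The list of lipid peroxidation around Gpx4 had 10 genes tested, 8 below 0, with a median of -0.21. That median was -0.02 without wild type replicate 3, -0.04 with array weights and -0.57 on slide 2 alone. Alox5, a lipoxygenase of myeloid cells, was at -0.64 (standard error 0.20; limma, adjusted p = 1.00). Fth1, the ferritin heavy chain, was at 0.30, a value that rests on 1 wild-type array because the spot was marked as an outlier on the other 2. The list deviated by 0.41 on wild type replicate 3 and by -0.27 on knockout replicate 2. Slc7a11, the cystine importer that feeds glutathione synthesis, did not pass the background criterion. The 11 genes of oxidative protein folding, the setting of Gpx7 and Gpx8, had a median of 0.0019, with Vkorc1 at -0.17 and P4hb, a protein disulfide isomerase, at -0.06.

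**Figure D4:**
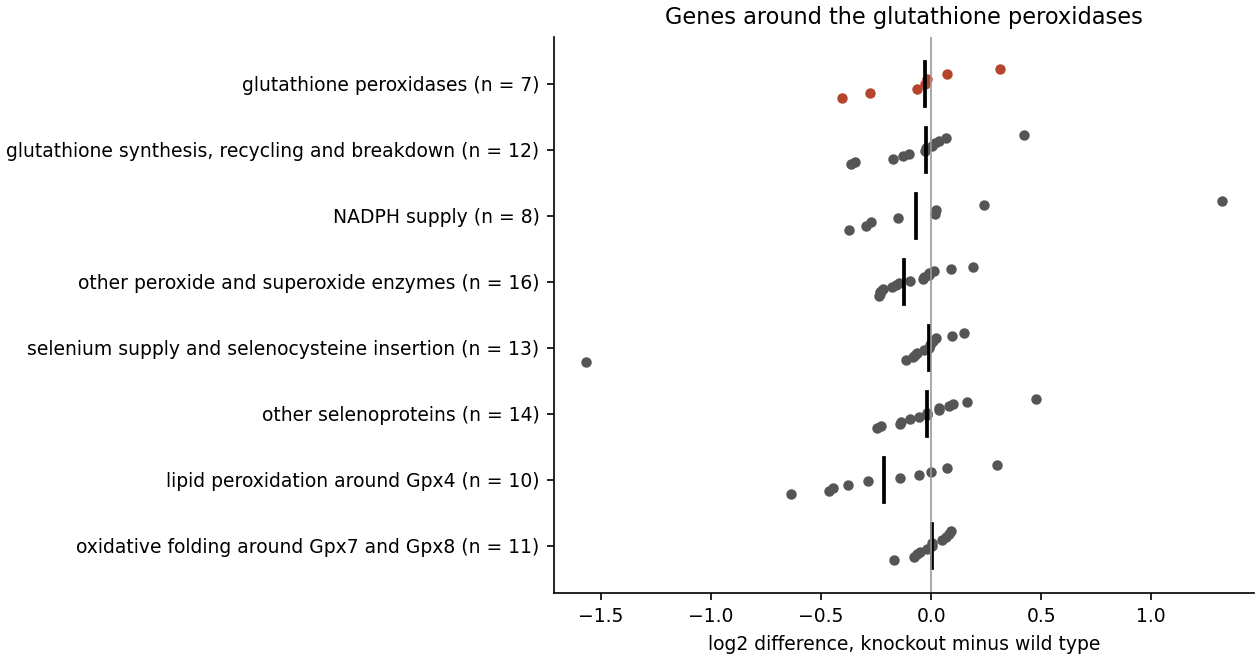
Log2 difference, knockout minus wild type (horizontal axis), for the glutathione peroxidases (red) and for the genes of 7 related lists (grey, a point per gene), with the list median as a bar. The medians run from -0.21 to 0.0019, and Nnt at 1.32 and Lrp2 at -1.57 are the points farthest from 0, with Lrp2 at -0.12 on slide 2 alone.

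Medians of the marker lists moved with single arrays and with the slide. That of corpus luteum (6 genes) was -0.58 over all arrays, 0.06 with array weights and 0.49 without knockout replicate 2. That of red cells (3) was 0.66, and 0.06 without the same array. Oocyte markers (8) had a median of -0.21, which was -0.467 without knockout replicate 2, -0.475 when wild type replicate 3 was left out, and 0.33 on slide 2 alone. Granulosa cells (8) were at 0.06, and at 0.81 on slide 2 alone, and theca and interstitial cells (4) were at -0.04, and at 0.42 on slide 2 alone. Macrophages (5) were at 0.13, and at -0.10 without knockout replicate 1. Adipocyte markers (2 of 5, Fabp4 and Plin1) were at -0.43, at 0.25 without wild type replicate 1 and at 0.44 on slide 2 alone. The oviduct and secretory epithelium list (3) was at -3.05, at -0.87 without wild type replicate 2, at -0.84 on slide 2 alone and at -1.45 with normexp. Its member Agr2 was well above background on 0 of the 3 knockout arrays and on all 3 wild-type arrays, so it was tested through the wild-type group alone. Gut epithelium (2) was at -0.22, and the olfactory and epididymal list (2) at 0.24, and at -0.02 without knockout replicate 3. Of that list, Cnga2 was tested through the knockout group alone. With all 6 arrays required to be well above background, Omp remained alone, at -0.07. The kidney tubule list held Lrp2 alone. No marker was called.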

How the data were processed

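The authors deposited scanner files of Agilent Feature Extraction 10.7.1.1 with spot intensity on a linear scale, detrended and background-subtracted array by array, and placed probes on mm9, per the file headers. A series table, deposited as intensity on a linear scale, was an alternative. Its columns all had a median of 119.8 and followed their own scanner file (Spearman's rho at least 0.9999), with the method not given in the sources used here. Spots marked as outliers (192 to 459 per array) were left out and repeat spots averaged. No spot was saturated. The 75th percentile of each array, subtracted on the log2 scale, lay between 1309 and 1759. Of 39429 probes, 24415 were kept, those well above background on every array of 1 genotype or the other. Their differences were tested with lmFit and eBayes of limma 3.58.1 (R 4.3.3) on all 6 arrays, two-sided, with Benjamini-Hochberg adjustment over all kept probes and a threshold of 0.05. The fit was tested on simulated data with planted differences far larger than those of the members. This does not show whether differences of the members' size would be found. List genes were matched by RefSeq accession, symbol or older symbol (26518, 3786 and 716 probes), and a gene with several kept probes is represented by the brightest. Tables and plots used Python 3.11.15, pandas 2.3.3, numpy 2.4.6, scipy 1.17.1 and matplotlib 3.10.9. Alternatives were the series table, median scaling, quantile normalization, normexp (offset 50), other background filters, slide or replicate number as a block, slide 2 alone, array weights and each array left out. Every member is named, with, from each pathway list, the 2 genes of smallest p where none was called. The number of arrays limits the precision. The members and lists were chosen with earlier results of these data known. Values of some listed marker genes are not reported here.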

Additional observations from a re-analysis of the deposited data

How the results depend on the processing

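No glutathione peroxidase was called under any of the 17 alternatives (0 in each). The count over all probes, 1 in the main analysis, was 0 with no filter on background, with slide as a fixed block, on the slide with both genotypes only and with the replicate block, and 0 to 19 with an array left out (19 when wild type replicate 3 was dropped, 1 for knockout replicate 2 and 0 for each of the other 4). Replicate numbers here follow the order of the samples within a genotype and differ in part from the numbers in the sample titles. Equal replicate numbers did not pair the arrays, with correlations of their deviations of -0.33, 0.30 and -0.03, and knockout replicate 1 correlated best with wild type replicate 3. Gpx1, Gpx4 and Gpx7 kept their sign under all 17 alternatives, from -0.64 to -0.08, from -0.19 to -0.01 and from 0.12 to 0.52. These 17 are not separate checks of the sign. The other background filters and the replicate block return the main estimate of these members unchanged. Slide as a fixed block gives the same estimate as slide 2 alone. Signs turned with the slide as a fixed block and on slide 2 alone for Gpx2 (0.15 in each) and Gpx8 (0.0521 in each), with slide as a random block for Gpx2 (0.011), with normexp (-0.0595) and array weights (-0.13) for Gpx6, and with the series table for Gpx8 (0.0043). With an array left out, Gpx2 ran from -0.27 to 0.18, Gpx3 from -0.77 to 0.11, Gpx6 from -0.21 to 0.24 and Gpx8 from -0.0508 to 0.0089. The causes were not tested. Selenbp1 stayed between -2.84 and -2.64, with adjusted p values from 0.00212 to 0.557 (limma). All 8 probes kept their place in the order of signal with normexp and with the series table. Of 306 list medians under alternatives, 25 moved by at least the SD between arrays, among them oocyte, granulosa, theca, oviduct, lipid peroxidation and Lrp2 on slide 2 alone. That SD differs between lists, and moves below it also turned signs. Corpus luteum went from -0.58 to 0.49 without knockout replicate 2, and adipocytes from -0.43 to 0.44 on slide 2 alone. Gpx5 was not tested, its signal being below background, and Gpx6 was left out under the strictest filter.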
